A study of Mus musculus with 53 samples.

Results

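Cells that run short of an amino acid slow general protein synthesis and make more of the transcription factor Atf4. Uncharged tRNA activates a kinase that phosphorylates the initiation factor eIF2, and translation of the Atf4 message rises while most other translation falls. Atf4 pairs with C/EBP proteins on genes for amino acid synthesis, amino acid transport and tRNA charging, and on the genes of a later stress arm led by Ddit3 (also called CHOP). The aminoacyl-tRNA synthetases of the cytosol each load an amino acid onto its tRNAs and are needed in every growing cell. Embryonic stem cells divide fast and draw heavily on these pathways.

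The genes described are 38 in number: 18 cytosolic tRNA synthetases, 5 nuclear factors of the stress response (Ddit3, Atf4, Atf5, Cebpb and Nupr1), 5 feedback or signalling genes (Trib3, Chac1, Sesn2, Ddit4 and Eif4ebp1), 6 enzymes of asparagine, serine and one-carbon synthesis, 3 transporter genes and the lipoprotein receptor Vldlr. They were taken as a list of known Atf4 and Ddit3 pathway genes and synthetases. The list was chosen with earlier results of these data known, so counts of its genes past a threshold are descriptions. Of these, 36 were among the 11647 genes of the bulk RNA table, which did not list Slc7a11 and Vldlr, and all 38 were among the 23235 genes of the single-cell table.

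The bulk RNA came from mouse R1 embryonic stem cells grown in serum and LIF without feeders. The 5 populations were cells with both alleles of the T-box factor Tbx3 targeted (N/N), with 1 allele targeted (+/N) and with none (+/+), and cells carrying either a Tbx3 hairpin (shTbx3) or a luciferase hairpin (shLuc) as its control. Each population was read as 1 library, so no difference between populations has a replicate check and none carries a p-value. What the targeting removed from Tbx3 is not in the labels, nor whether each line was a single clone. Sites of Tbx3 on DNA came from a streptavidin pull-down of tagged Tbx3 in N/N cells that also carried the biotin ligase BirA, and cells with BirA alone served as control. Single-cell RNA came from 45 cells of the same line and 1 pool, sorted for the antigen SSEA1 and without DAPI stain.

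Tbx3 itself was at 15.1 FPKM in N/N, 22.5 in +/N and 44.4 in +/+, and at 5.09 FPKM in shTbx3, against 13.8 in shLuc. FPKM counts fragments relative to the length of the transcript and to the total of the library. The stem cell markers (7 of 8 measured) summed to 1746 to 2471 FPKM in the 5 libraries and none was at 0. In the allele libraries 19.6% to 22.7% of all FPKM fell on small RNA genes, in the hairpin libraries 5.43% to 7.24%, and the read depth is not known. A difference between populations in bulk RNA can come from more RNA per cell or from more cells that express the gene, and these cannot be told apart.

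The comparison of N/N with +/+ asked what goes with the loss of both intact Tbx3 alleles. Ddit3, Nupr1 and Ddit4 stood apart from the rest of the pathway: they were higher in N/N by more than 2-fold, while the synthetases and the synthesis enzymes stayed close to their level in +/+. Of the 36 genes, 3 were at least 2-fold higher in N/N, against 1.37% of the 11478 genes compared, and 0 were at least 2-fold lower, against 1.92%. Differences are log2 of the ratio of FPKM + 1, which understates the difference of genes with low values. In all, 20 of the 36 were higher in N/N and 16 lower, with a median difference of 0.12, beside -0.03 over all genes compared.

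Ddit3, the transcription factor that drives the late stress arm, was at 45.1 FPKM in N/N, 31.4 in +/N and 11.9 in +/+. It was at 9.11 FPKM in shTbx3 and 9.75 in shLuc. The log2 difference was 1.84 for N/N against +/+, 1.33 for +/N against +/+ and -0.09 for shTbx3 against shLuc. The level thus ran N/N, +/N, +/+ from high to low in the allele set, while the hairpin libraries stood close together and below all 3. Ddit3 (chromosome 10, 126727830 to 126733344, plus strand, mm9) overlaps the methionyl synthetase gene Mars on the other strand by 68 bp at their 3' ends, so some reads there may belong to either. Mars was at 63.4 FPKM in N/N, 60.6 in +/N and 66.6 in +/+, without the order seen for Ddit3.

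Nupr1 encodes a small nuclear protein made under stress. It was at 17.9 FPKM in N/N, 12.4 in +/N and 5.16 in +/+, a log2 difference of 1.62 for N/N and of 1.12 for +/N against +/+. In the hairpin pair it was at 3.49 FPKM in shTbx3 and 10.8 in shLuc, a log2 difference of -1.39. Nupr1 was thus higher with the targeted alleles and lower with the hairpin, though Tbx3 was lower than its control in each. The pairs share no library.

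Ddit4 (also called REDD1) restrains the growth kinase mTORC1. It had the highest level of the 3, with 272 FPKM in N/N, 208 in +/N and 110.3 in +/+. Its log2 difference was 1.30 for N/N and 0.91 for +/N against +/+. In the hairpin pair it was at 71.1 FPKM in shTbx3 and 90.5 in shLuc, a log2 difference of -0.34.

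Atf4, the factor upstream of these genes, was at 96.7 FPKM in N/N, 80.9 in +/N and 52.1 in +/+, and at 100.6 FPKM in shTbx3 and 84.2 in shLuc. Its log2 differences of 0.88 for N/N against +/+ and 0.25 for shTbx3 against shLuc were both below 2-fold. The hairpin difference fell to 0.09 with the median of genes set to 0 and to 0.04 when values were rescaled without small RNA genes. These values are of RNA, whereas the textbook control of Atf4 acts on its translation, which was not measured. Atf5, a relative of Atf4, was at 10.5 FPKM in N/N, 9.99 in +/N and 12.6 in +/+, and at 9.96 in shTbx3 and 6.71 in shLuc. Cebpb, a C/EBP protein that partners Atf4, was at 8.30 FPKM in N/N, 8.48 in +/N and 6.90 in +/+, and at 4.47 in shTbx3 and 2.60 in shLuc. Both lay within 2-fold in each comparison, with the largest log2 difference 0.60 for Cebpb in the hairpin pair.

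**Figure D1:**
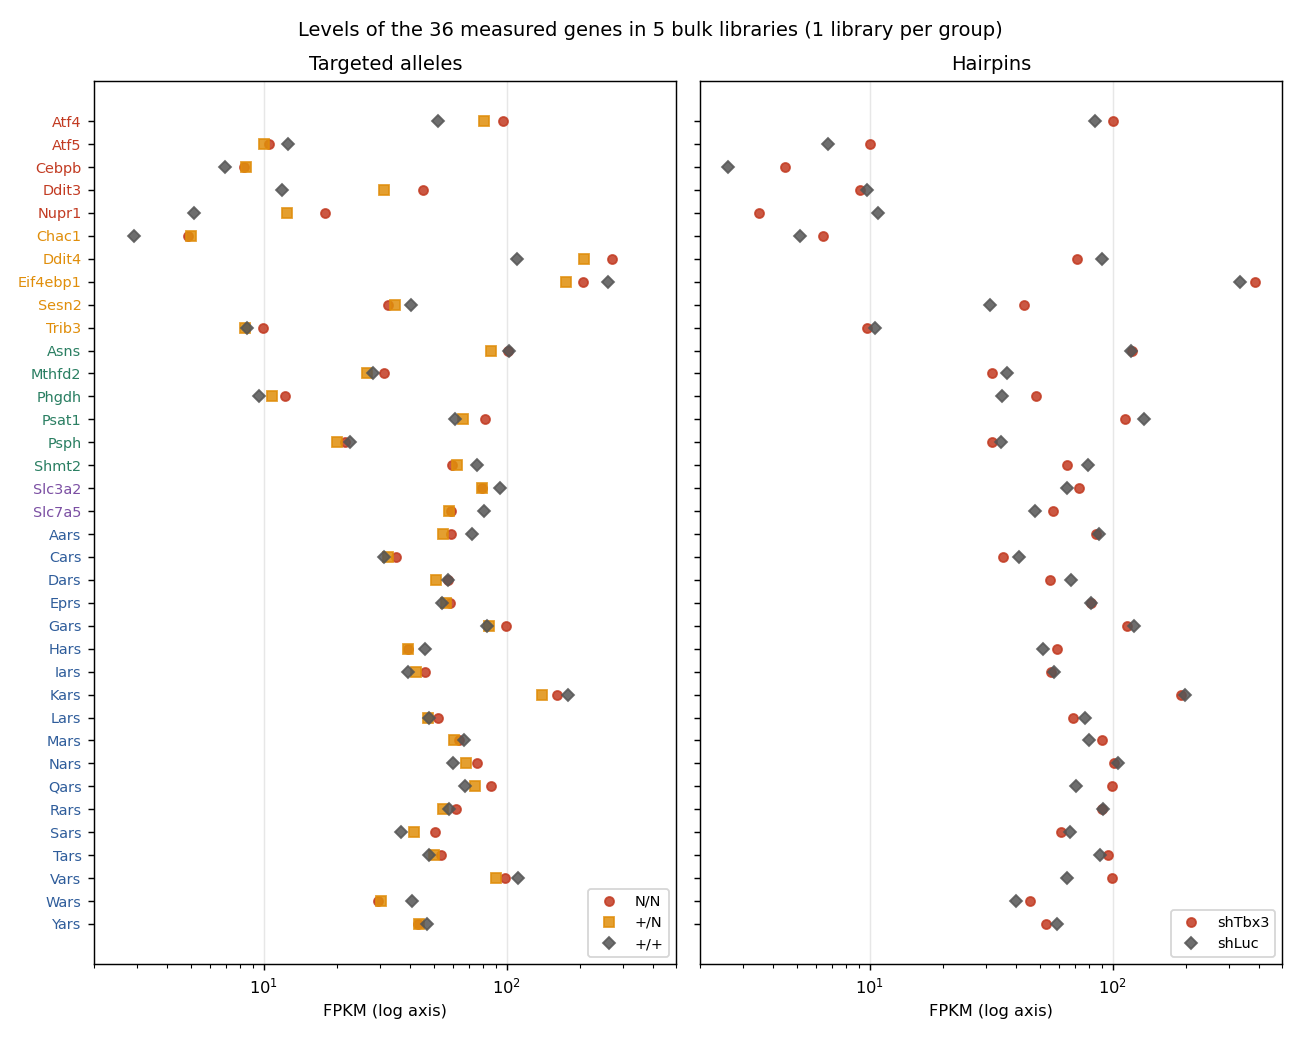
FPKM (log axis) of the 36 measured genes in the allele libraries N/N, +/N and +/+ (left) and the hairpin libraries shTbx3 and shLuc (right), 1 point per library, with gene names coloured by role (transcription factors and Nupr1 red, feedback and signalling orange, synthesis enzymes green, transporters purple, synthetases blue). Ddit3 at 45.1, 31.4 and 11.9 FPKM, Nupr1 at 17.9, 12.4 and 5.16 and Ddit4 at 272, 208 and 110.3 are the widest spreads of the left panel, and the points of each synthetase, in the lower part, lie close together within a panel.

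Other genes also differed between these libraries. The fibroblast or feeder cell markers (7 of 8 measured) summed to 119.7 FPKM in N/N, 115.0 in +/N and 46.4 in +/+, and to 18.1 in shTbx3 and 8.20 in shLuc. Of the 7, 6 were higher in N/N than in +/+ (Thy1 was not) and 7 in +/N than in +/+, with median log2 differences of 1.17 and 1.55. Between N/N and +/N, 3 were higher and 4 lower in N/N. The 3, Col1a1, Acta2 and Lox, ran in the order of Ddit3, as did the sum, and the 4 did not. None of the 7 was at 0 in an allele library, and the defining markers Postn and Lox were listed at 0 in shLuc. The ribosomal RNA precursor Rn45s was at 1768 FPKM in N/N, 1336 in +/N and 494 in +/+ and was listed at 0 in both hairpin libraries. The endoderm markers (6 of 8 measured, none at 0) ran the other way, with 9.65 FPKM in N/N, 19.3 in +/N and 69.3 in +/+, and 22.3 in shTbx3 and 19.7 in shLuc. The part of these in the differences of Ddit3, Nupr1 and Ddit4 was not tested.

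With 1 targeted allele, Ddit3 and Nupr1 were at least 2-fold higher in +/N than in +/+, which makes 2 of 36 genes, against 0.698% of the 11459 genes compared. None was at least 2-fold lower, against 1.21%. The same +/+ library served for N/N against +/+, so these comparisons, and the order of the allele libraries, are not independent. The +/N library lay lower as a whole, with a median difference of -0.12 over genes with at least 5 FPKM in each library. The median over the 36 genes was -0.05, and it turned positive, to 0.07, when that general shift was set to 0. On that scale Ddit4 also passed 2-fold, at 1.03.

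Between N/N and +/N no gene of the 36 passed 2-fold in either direction, against 0.317% of the 11362 genes compared that were higher and 0.308% that were lower. Ddit3 differed by 0.51, Nupr1 by 0.49, Ddit4 by 0.38 and Atf4 by 0.26, beside a shift of 0.09 over genes with at least 5 FPKM in each library. Rescaled without small RNA genes, Ddit4 differed by 0.25 and Atf4 by 0.12. The order N/N above +/N above +/+ held for 14 of 36 genes, against 25.4% of all genes, and the reverse order for 5, against 22.5%. The 14 were Ddit3, Atf4, Nupr1, Ddit4, Psat1 and Phgdh and 8 synthetases (Cars, Eprs, Gars, Iars, Nars, Qars, Sars and Tars).

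The feedback genes did not follow Ddit3 as a group. Trib3, a pseudokinase that restrains Atf4 and is a textbook target of Ddit3, was at 9.94 FPKM in N/N, 8.35 in +/N and 8.49 in +/+, and at 9.76 in shTbx3 and 10.5 in shLuc. Chac1, which degrades glutathione and is another target of this arm, was at 4.85 FPKM in N/N, 5.03 in +/N and 2.93 in +/+, with 6.41 in shTbx3 and 5.15 in shLuc. The log2 difference of N/N against +/+ was 0.20 for Trib3 and 0.57 for Chac1. Sesn2, a leucine sensor that restrains mTORC1, was at 32.5 FPKM in N/N, 34.8 in +/N and 40.3 in +/+, and at 43.0 in shTbx3 and 31.1 in shLuc. Eif4ebp1, which blocks the cap-binding factor eIF4E, was at 207 FPKM in N/N, 175 in +/N and 260.4 in +/+, and at 384 in shTbx3 and 336 in shLuc. Ddit4 and Sesn2, which both restrain mTORC1, thus lay on opposite sides of 0 in N/N against +/+, at 1.30 and -0.30.

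The enzymes and transporters stayed within 2-fold in all 4 comparisons, as did all but 0.308% to 2.81% of the genes compared in each direction. Asns, which makes asparagine and is the standard reporter of Atf4 activity, was at 101.4 FPKM in N/N, 86.5 in +/N and 102.4 in +/+, and at 120.0 in shTbx3 and 119.1 in shLuc. Among the serine synthesis enzymes, Psat1 was at 81.0 FPKM in N/N, 65.9 in +/N and 60.98 in +/+, and at 112.6 in shTbx3 and 134.0 in shLuc. Phgdh, the first enzyme of that pathway, differed by a log2 of 0.32 for N/N against +/+ and 0.46 for shTbx3 against shLuc. The other 3 enzymes, Psph, Shmt2 and Mthfd2, lay between -0.34 and 0.14 in N/N against +/+. Slc3a2, the shared heavy chain of several amino acid exchangers, was at 79.0 FPKM in N/N, 78.7 in +/N and 93.6 in +/+, and at 72.9 in shTbx3 and 64.9 in shLuc. Its partner Slc7a5, which carries large neutral amino acids, was at 58.9 FPKM in N/N, 58.1 in +/N and 80.6 in +/+, and at 57 in shTbx3 and 47.9 in shLuc. Both chains were lower in N/N than in +/+, with log2 differences of -0.24 and -0.45, and differed by 0.17 and 0.24 for shTbx3 against shLuc, beside a shift of 0.16 over all genes at 5 FPKM or more.

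None of the 18 cytosolic synthetases passed 2-fold in any of the 4 comparisons. Of all genes compared, 0.308% to 2.81% did, depending on the comparison and direction. With shares this low, 0 of 18 does not set the synthetases apart from other genes. In N/N against +/+ they ran from -0.45 for Wars (tryptophan) to 0.45 for Sars (serine), with 10 higher and 8 lower. In shTbx3 against shLuc they ran from -0.27 for Dars (aspartate) to 0.61 for Vars (valine), which was at 99.3 FPKM in shTbx3 and 64.9 in shLuc. Kars (lysine) had the highest FPKM of the 18 in all 5 libraries, at 161 in N/N, 139 in +/N, 179 in +/+, 191 in shTbx3 and 198 in shLuc, though a pseudogene copy of Kars is annotated and could share reads. Wars or Cars (cysteine) had the lowest. The ratio of a synthetase's highest library to its lowest ran from 1.32 (Dars) to 2.0 (Tars, threonine). The summed FPKM of the 18 was 1170 in N/N, 1059 in +/N and 1146 in +/+, and 1483 in shTbx3 and 1449 in shLuc.

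In shTbx3 against shLuc, 1 of 36 genes was at least 2-fold lower, which was Nupr1, against 0.987% of the 11342 genes compared. None was at least 2-fold higher, against 2.81%. The shTbx3 library lay higher as a whole, by 0.16 over genes with at least 5 FPKM in each, and the median over the 36 genes was -0.03, or -0.19 relative to that shift. Set side by side with N/N against +/+, 7 genes were higher in both, 6 lower in both, 13 higher in N/N and lower in shTbx3, and 10 the other way. The same direction was thus seen for 36.1% of the 36 genes, beside 45.4% of all 11182 genes compared in both pairs. The hairpin libraries also differed in other ways: the antigen-presenting or B cell markers (5 of 7 measured, none at 0) summed to 6.71 FPKM in shTbx3 and 86.4 in shLuc, and the primitive streak markers (4 of 6, none at 0) to 70.9 and 2.33. The part of these in the difference of Nupr1 was not tested.

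**Figure D2:**
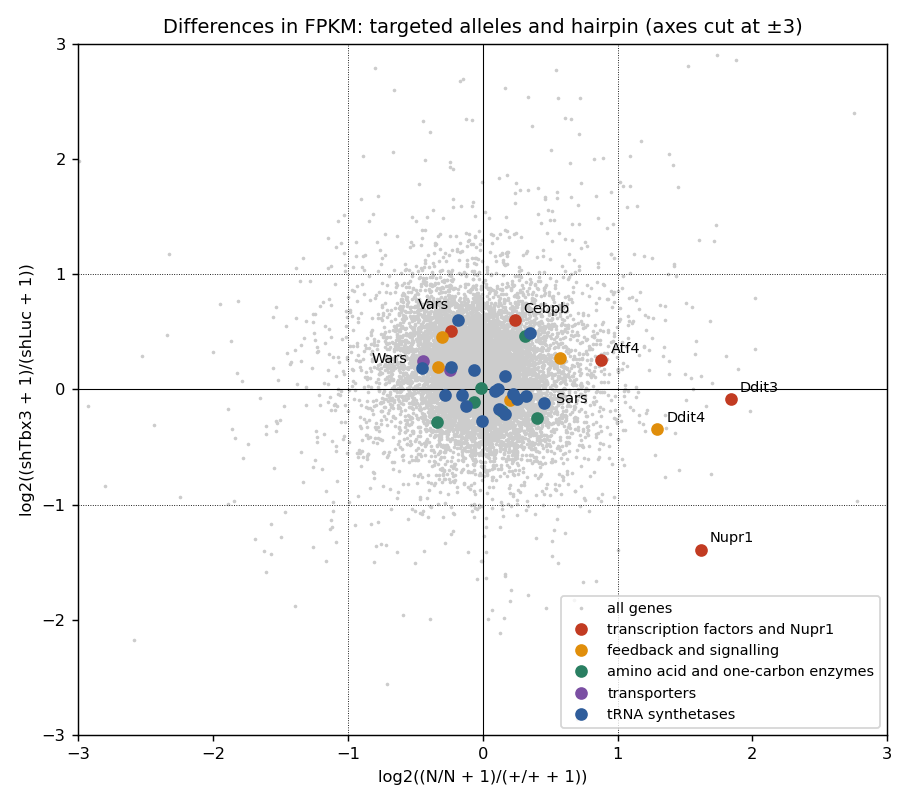
Each point is a gene, with the log2 difference of N/N against +/+ on the horizontal axis and of shTbx3 against shLuc on the vertical axis, both of FPKM + 1. Large points are the 36 genes coloured by role, small grey points all other genes, and dotted lines mark 2-fold. Ddit3 (1.84 and -0.09), Nupr1 (1.62 and -1.39) and Ddit4 (1.30 and -0.34) lie to the right of the 2-fold line, and the synthetases lie within 0.61 of 0 on both axes.

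Related genes were read from lists of the same pathways. Of 23 other Atf4 target genes, 0 were at least 2-fold higher in N/N than in +/+, against 1.37% of all genes compared, and 2 were at least 2-fold lower, against 1.92%, with a median of 0.02. Of the 23, 12 were higher and 11 lower in N/N, so the list as a whole had no clear direction. Only the 2 genes past 2-fold went opposite to Ddit3, Nupr1 and Ddit4. The 2 were Atf3, a stress factor that Atf4 induces, at 2.95 FPKM in N/N, 3.53 in +/N and 7.46 in +/+, and Slc7a1, a carrier of cationic amino acids, at 4.43, 6.47 and 10.2 FPKM in the same order. Atf3 thus lay lower in the library in which Ddit3 was higher. It was at 3.32 FPKM in shTbx3 and 1.29 in shLuc, a log2 difference of 0.91. None of 21 endoplasmic reticulum chaperones and other unfolded protein response genes passed 2-fold in either direction, nor did any of 9 one-carbon and 15 mTORC1 pathway genes. The chaperone Hspa5 was at 184 FPKM in N/N, 192 in +/N and 202 in +/+, and Derl3, of the pathway that exports misfolded proteins, at 14.6, 13.7 and 7.96 FPKM.

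Among 16 genes for eIF2 kinases, its phosphatase and its exchange factor, 1 was at least 2-fold lower in N/N, against 1.92% of all genes, and 0 were higher, against 1.37%. It was Eif2ak2 (PKR), the interferon-induced eIF2 kinase activated by double-stranded RNA, at 3.62 FPKM in N/N, 4.71 in +/N and 12.3 in +/+. The interferon-stimulated genes Isg15 and Irf7 were also lower in N/N and +/N, at 4.33 and 2.89 FPKM in N/N, 3.66 and 2.94 in +/N and 53.9 and 32.04 in +/+. In the hairpin pair the 3 did not move together: Isg15 was at 9.10 FPKM in shTbx3 and 0.526 in shLuc, with log2 differences of 2.73 for Isg15, -0.29 for Eif2ak2 and -0.31 for Irf7. Impact, which restrains the kinase that senses uncharged tRNA, was at 44.2 FPKM in N/N, 36.4 in +/N and 23.2 in +/+, a log2 difference of 0.90. Of the 5 genes of the phenylalanyl synthetase and the synthetase scaffold, none passed 2-fold, and the scaffold subunit Aimp1 differed most, at 99.6 FPKM in N/N, 70.8 in +/N and 64.8 in +/+.

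Of 17 mitochondrial synthetases, 1 was at least 2-fold higher in N/N than in +/+, against 1.37% of all genes, and 0 were lower, against 1.92%, with a median of -0.12. It was Lars2, the mitochondrial leucyl synthetase, at 51.0 FPKM in N/N, 39.0 in +/N and 15.9 in +/+, and at 498 in shTbx3 and 458 in shLuc. In the allele libraries Lars2 and Rn45s ran in the same order. Rn45s was listed at 0 in both hairpin libraries, so no order can be compared there. A link between Lars2 and Rn45s was not tested. In shTbx3 against shLuc none of the genes on these lists passed 2-fold, against 2.81% of all genes compared that were higher and 0.987% that were lower. The largest differences among genes at 5 FPKM or more were 0.96 for Akt1s1, an mTORC1 component, and 0.75 for Eif2b4, an eIF2B subunit.

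Promoter sequences were read to set the stress-arm genes beside textbook Atf4 targets. The element that Atf4 and C/EBP proteins bind, here TGATGNAA with N any base, was searched on both strands of RefSeq promoters (GRCm38.p6), from 250 bases before to 50 bases after the gene start. RefSeq promoters were matched for 29 of the 38 genes. The element was in 11 of 29 promoters (37.9%), beside 4.51% of the promoters of 27025 genes. The list was chosen as Atf4 pathway genes, so this share describes the list and is not a result of the experiment. The 11 were the synthetases Aars, Gars, Iars, Tars and Yars, and Asns, Trib3, Chac1, Slc7a11, Nupr1 and Vldlr. The ER stress element was searched only in the exact form of CCAAT and CCACG with 9 bases between them. That form was in 0 of 29, beside 0.137% of all promoters. Variants of it were not counted. The Ddit3 promoter printed below holds CCAAT and GCACG with 9 bases between them on the other strand, so the 0 does not show that these promoters lack such an element. The T-box core GGTGTGA was in 3 of 29, those of Atf4, Atf5 and Slc7a11, beside 4.60% of all promoters.

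The promoters below are those of the 3 genes at least 2-fold higher in N/N and of 2 targets that were not, Asns and Chac1. Capitals mark the element on either strand: TTGCATCA from 110 bases before the start of Nupr1, TGATGAAA from 23 bases before that of Asns, and TTGCATCA from 193 bases before that of Chac1. Each sequence matched mm9 exactly, at chr7:133768935-133769234 (minus strand) for Nupr1, chr10:126727599-126727898 (plus) for Ddit3, chr10:59414469-59414768 (minus) for Ddit4, chr6:7643160-7643459 (minus) for Asns and chr2:119176728-119177027 (plus) for Chac1.
Nupr1: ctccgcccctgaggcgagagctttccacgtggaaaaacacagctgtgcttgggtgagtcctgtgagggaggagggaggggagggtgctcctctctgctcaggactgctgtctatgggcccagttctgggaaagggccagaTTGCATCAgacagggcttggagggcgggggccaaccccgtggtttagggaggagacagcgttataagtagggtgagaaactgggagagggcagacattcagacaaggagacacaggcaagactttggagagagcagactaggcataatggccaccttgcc
Ddit3: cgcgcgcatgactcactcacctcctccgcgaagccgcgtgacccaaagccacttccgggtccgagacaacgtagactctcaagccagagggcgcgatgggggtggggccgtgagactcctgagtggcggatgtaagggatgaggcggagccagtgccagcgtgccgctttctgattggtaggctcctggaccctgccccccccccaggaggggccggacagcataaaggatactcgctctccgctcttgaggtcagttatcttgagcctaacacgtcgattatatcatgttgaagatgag
Ddit4: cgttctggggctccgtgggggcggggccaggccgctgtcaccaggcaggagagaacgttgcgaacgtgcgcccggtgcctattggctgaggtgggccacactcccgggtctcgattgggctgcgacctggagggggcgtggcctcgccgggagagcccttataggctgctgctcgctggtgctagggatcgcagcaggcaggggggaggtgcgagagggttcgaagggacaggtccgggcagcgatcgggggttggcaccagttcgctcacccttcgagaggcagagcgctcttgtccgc
Asns: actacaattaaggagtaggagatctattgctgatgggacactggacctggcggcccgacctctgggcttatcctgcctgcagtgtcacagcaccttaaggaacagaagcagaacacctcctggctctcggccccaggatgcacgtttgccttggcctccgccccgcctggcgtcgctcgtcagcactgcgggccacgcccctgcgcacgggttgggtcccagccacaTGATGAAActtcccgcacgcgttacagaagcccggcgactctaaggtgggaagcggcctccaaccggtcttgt
Chac1: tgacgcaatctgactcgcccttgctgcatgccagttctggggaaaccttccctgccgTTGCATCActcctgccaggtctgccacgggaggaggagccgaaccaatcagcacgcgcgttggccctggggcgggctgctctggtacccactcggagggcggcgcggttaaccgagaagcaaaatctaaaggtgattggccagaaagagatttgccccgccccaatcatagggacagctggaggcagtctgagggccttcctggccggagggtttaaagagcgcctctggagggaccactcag
The element was thus present in 1 of the 3 promoters with a 2-fold difference and absent from these windows of Ddit3 and Ddit4, and it was present in Asns and Chac1, which lay within 2-fold. Sequence beyond these windows was not searched, so absence here does not show that Ddit3 or Ddit4 lacks the element.

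The pull-down list asked which of these genes lie near a Tbx3 site. A site lay within 20 kb of the start of 6 of the 38 genes (15.8%), beside 14.9% of the 11431 genes of the bulk table that could be placed. These were Ddit4, Sars, Slc3a2, Psat1, Sesn2 and Eif4ebp1, with 10 sites in all. Of the 18 synthetases 1 had a site, and the starts of Ddit3, Nupr1 and Atf4 had none within 50 kb. The score of a site is the authors' value, and the 3078 sites had a median score of 76.7 and a highest of 791.

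Sars had the strongest site of the set. It lay in an intron, 11331 bp downstream of the start (mm9, chr3:108236287-108236796), and its score of 723 ranked number 3 of the 3078. The start of the cadherin gene Celsr2 is also within 20 kb of it. A second site, chr3:108248011-108248432, lay over the start of Sars with a score of 85.5. Sars RNA was at 50.4 FPKM in N/N, 41.4 in +/N and 36.6 in +/+, and at 61.4 in shTbx3 and 66.6 in shLuc, so the gene beside the strongest site differed by less than 2-fold in every comparison.

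Ddit4 had 4 sites within 50 kb, all upstream. At least 4 sites lay within 50 kb of the start of 0.42% of the genes placed. That cutoff is the count of Ddit4 itself, so the share describes Ddit4 and is not a test. They lay 5969, 11744, 22229 and 25195 bp from the start, with scores of 176, 129, 191 and 157. For the farthest, the start of Ascc1 was about as near, at 25156 bp. Ddit4 was the only gene with both a site within 20 kb and a difference of at least 2-fold in N/N against +/+, among the 36 in the bulk table. The share of all genes past 2-fold that have such a site was not computed, so this overlap cannot be set beside a general rate. Of the 10 sites within 20 kb, 1 held GGTGTGA, the second Ddit4 site, beside 13.5% of all 3078 sites.

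The sequences of the middle of the strong Sars site (chr3:108236392-108236691) and of the part of the second Ddit4 site with the T-box core (chr10:59426516-59426815) are given on the minus strand of mm9, that of both genes. Capitals mark the core, which reads TCACACC on this strand.
Sars site: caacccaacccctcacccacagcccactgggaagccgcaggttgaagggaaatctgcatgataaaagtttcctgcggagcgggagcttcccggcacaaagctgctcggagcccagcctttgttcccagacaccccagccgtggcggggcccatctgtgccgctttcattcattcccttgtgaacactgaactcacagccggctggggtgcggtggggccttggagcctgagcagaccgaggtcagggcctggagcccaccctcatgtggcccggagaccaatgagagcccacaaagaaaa
Ddit4 site: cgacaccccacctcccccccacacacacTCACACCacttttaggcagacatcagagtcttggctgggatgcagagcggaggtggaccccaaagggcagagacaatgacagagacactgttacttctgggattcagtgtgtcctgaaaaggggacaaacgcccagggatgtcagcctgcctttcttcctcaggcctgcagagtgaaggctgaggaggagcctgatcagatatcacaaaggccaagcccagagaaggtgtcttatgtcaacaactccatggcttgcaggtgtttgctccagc

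Sites also lay near the other 4 genes. Slc3a2 had 3: an intronic site 6585 bp downstream of the start with a score of 66.1, an exonic one at 9044 bp with a score of 193, and one 17749 bp upstream with a score of 57.9, which lay over the start of Stx5a. Psat1 had an intronic site at 4112 bp with a score of 59.03 and Sesn2 an intronic site at 4251 bp with a score of 104.5. The site nearest Eif4ebp1 lay 19477 bp upstream, with a score of 66.8, and was nearer to the start of Adrb3, at 10512 bp.

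**Figure D3:**
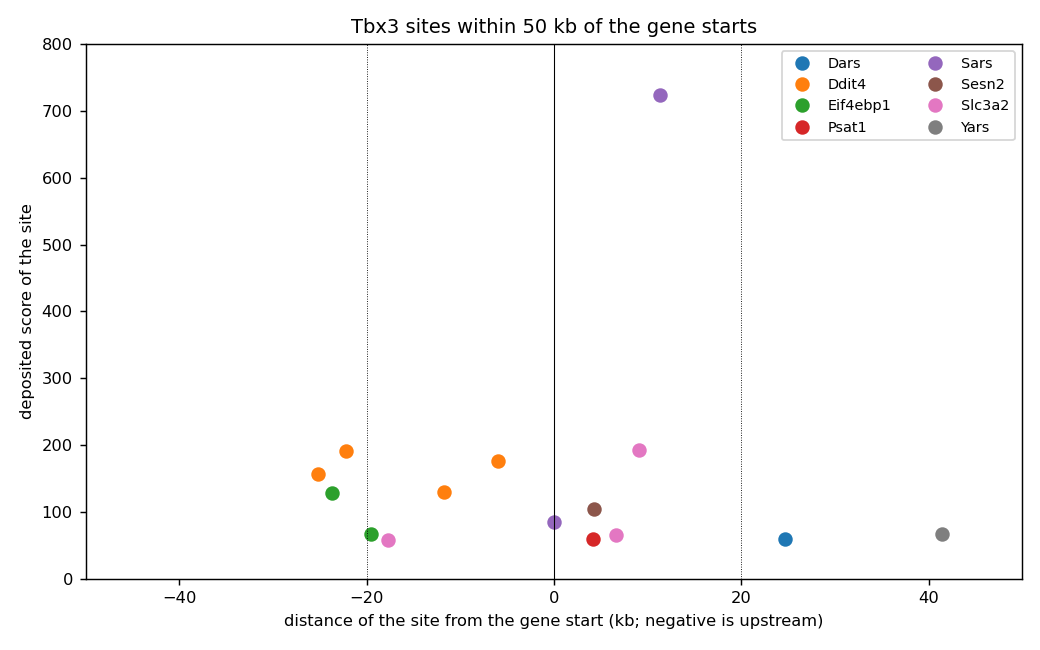
Each point is a Tbx3 site within 50 kb of the start of 1 of 8 genes, with its distance from the start in kb on the horizontal axis (negative is upstream) and its deposited score on the vertical axis. Dotted lines mark 20 kb. The Sars site with a score of 723 stands above all others, and the 4 Ddit4 sites, with scores of 129 to 191, lie upstream.

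Single cells were read to ask how evenly these genes are detected from cell to cell. The 45 cells listed 1642 to 3295 genes each at 1 FPKM or more. Of the 38 genes, 28 reached 1 FPKM in at least 25% of the cells. Among the 33 that were at 5 FPKM or more in all 5 bulk libraries, 26 (78.8%) passed this, beside 39.5% of all 6891 such genes. Their levels differed too: the median FPKM in the pool was 133 for the 33 genes and 28.97 for all such genes. Many genes that every cell uses were listed at 0, such as the methionyl synthetase Mars in 24 of 45 cells, so a value of 0 is not read as absence.

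Eprs, the enzyme that charges both glutamate and proline tRNAs, and Eif4ebp1 reached 1 FPKM in 45 of 45 cells (95% interval 92.1% to 100%, exact Clopper-Pearson, which covers counting error only). Eprs ran from 1.26 to 534 FPKM with a median of 116. Eif4ebp1 ran from 7.84 to 2036 with a median of 588. Kars passed in 42 cells, with a median of 645 FPKM, Nars (asparagine) in 39 and Hars (histidine) in 37. At the other end of the synthetases, Mars passed in 13 cells, Vars in 12 and Qars (glutamine) in 7. Each cell had between 4 and 16 of the 18 synthetases at 1 FPKM or more, with a median of 10.

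The stress arm was detected unevenly, and low detection was common among all genes. Of the 6891 genes at 5 FPKM or more in all 5 bulk libraries, 346 reached 1 FPKM in no cell. The same held for 2 of the 33 such genes of this list. The median over the 6891 genes was 8 cells, so low counts do not set these genes apart. Ddit3 reached 1 FPKM in 0 of 45 cells (interval up to 7.87%), with a highest value of 0.571 FPKM, against 17.9 FPKM in the pool. Sesn2 was also in 0 cells, with a highest value of 0.178 FPKM against 53.1 in the pool. Ddit4 was in 2 cells, with a highest value of 6.33 against 54.6 in the pool. Atf5 was in 1 cell and Cebpb in 7. Nupr1 went the other way: it was in 26 of 45 cells (57.8%, interval 42.2% to 72.3%), with a median of 1.33, a highest value of 1702 and a mean of 222 FPKM, against 43.5 FPKM in the pool. It reached 1 FPKM in 19 of 23 cells of the first block of cell columns and in 7 of 22 of the second. Of the 26 cells, 10, all in the first block, lay at 1.07 to 2.37 FPKM, and 16 were at 5 FPKM or more (9 in the first block and 7 in the second). The mean was 278 FPKM in the first block and 164 in the second, both above the pool. Of the 3 genes that were at least 2-fold higher in N/N, Nupr1 was thus the one seen in many cells. Of the others listed low in the pool, Slc7a11 (1.02 FPKM) was in 2 cells and Vldlr (0.720 FPKM) in 0.

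**Figure D4:**
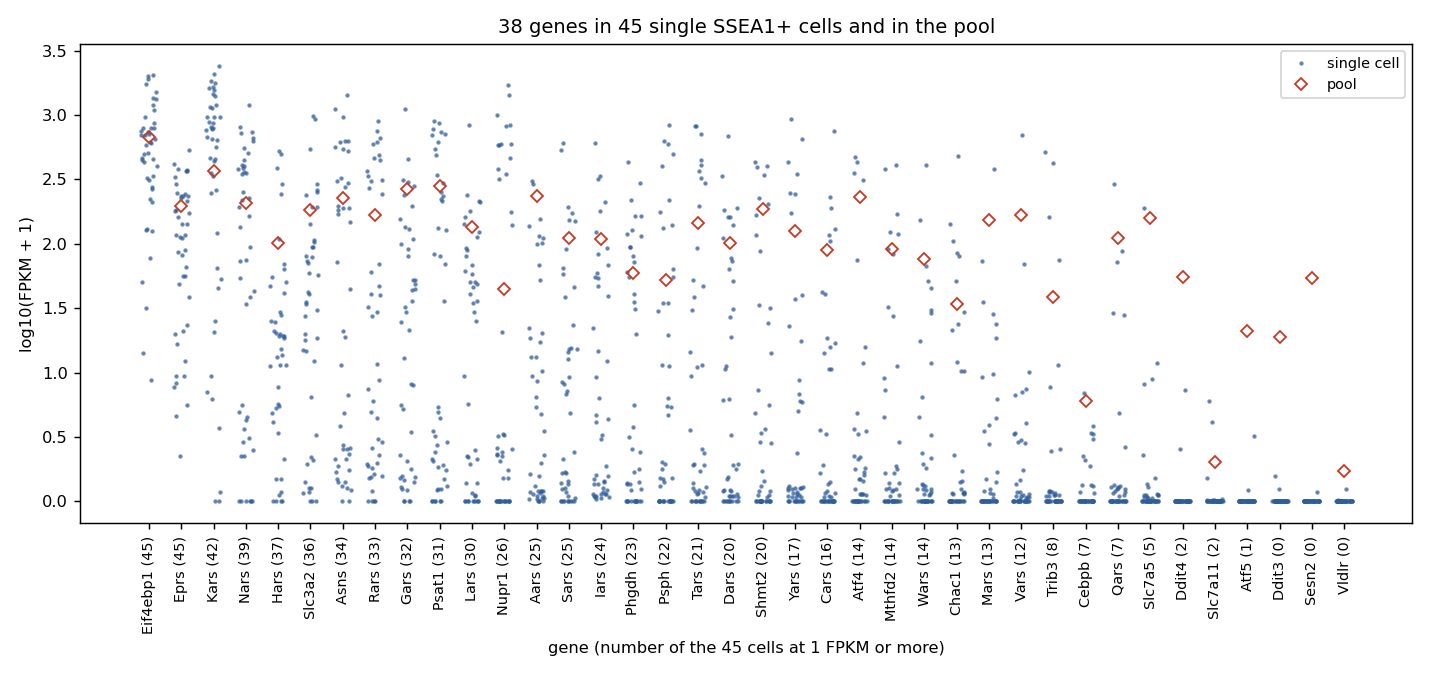
Log10 of FPKM + 1 of the 38 genes in each of the 45 cells (dots) and in the pool (diamonds), ordered by the number of cells at 1 FPKM or more, which follows each name. Eif4ebp1 and Eprs are in all 45 cells, and Ddit3, Sesn2 and Vldlr are in none although the pool held 17.9, 53.1 and 0.720 FPKM.

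The mean of the cells was set against the pool for each gene at 1 FPKM or more in either. Of 37 genes, 1 was at least 2-fold higher in the cells, which was Nupr1 at 5.01-fold, against 13% of 11997 genes, and 18 were at least 2-fold lower, against 55.7%. The median difference was -0.97 for the 37 genes and -1.18 for all genes. Kars followed Nupr1, with a mean of 721 FPKM in the cells and 369 in the pool. Sesn2 (-5.75), Ddit4 (-5.56), Slc7a5 (-4.77), Atf5 (-4.31) and Ddit3 (-4.22) were the lowest. Base composition was set beside these values. Over 36 genes at 5 FPKM or more in the pool, Spearman's rho between the G + C share of the transcript and the difference was -0.46, and over all 8337 such genes it was -0.45. Among the 2084 genes with a G + C share above 55.5% the median difference was -2.62. The 12 of the 36 genes in that group had a median of -2.39. Among the 2085 genes with the lowest share, up to 46.2%, the median difference was -0.11. The genes share libraries and are not independent, so these are descriptions. Within the 12, Ddit4 (57.6% G + C) and Sesn2 (58.7%) were the lowest. Slc7a5 (56.3%, a difference of -4.77), Atf5 (61.7%, -4.31), Vars (60.9%, -3.13), Aars (56.4%, -2.72), Cebpb (67.2%, -2.06) and Shmt2 (57.4%, -1.73) were also well below the pool. Eif4ebp1 (57.2%, -0.02), Phgdh (57.2%, -0.25), Chac1 (57.4%, -0.49) and Trib3 (58.2%, -0.48) lay near it. The part of base composition in the low detection of Ddit4 or Sesn2 was not tested.

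**Figure D5:**
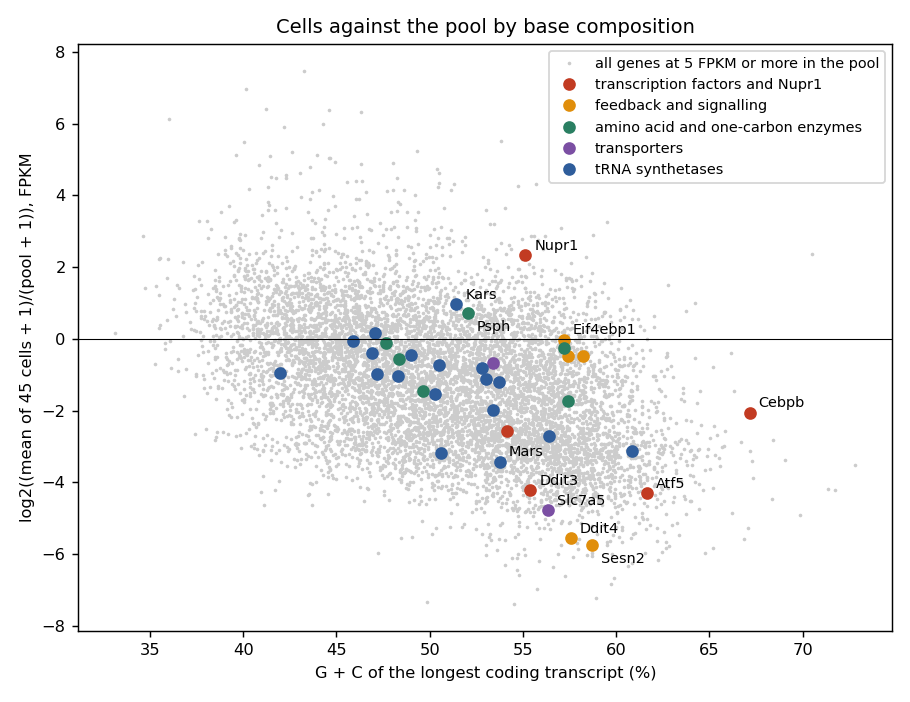
Each point is a gene at 5 FPKM or more in the pool, with the G + C share of its longest coding transcript (%) on the horizontal axis and the log2 difference of the mean of 45 cells against the pool on the vertical axis. Large points are 36 of the 38 genes, coloured by role. Both the grey cloud and the coloured points slope down (rho -0.45 and -0.46), with Nupr1 at 2.33 above the line and Sesn2 at -5.75 lowest.

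The genes showed little common variation between cells. Over the 378 pairs of the 28 genes, the median Spearman's rho was 0.07, beside 0.04 over pairs of all 3062 genes detected as often. The pairs with the highest rho were Lars and Aars (0.48), Yars and Kars (0.47) and Psph with Psat1 (0.46), consecutive enzymes of serine synthesis. For Psph and Psat1 the value was 0.60 and 0.27 within each block of cell columns. Chac1 and Atf4 gave 0.42, and Nars and Hars the lowest value, -0.43. Trib3 and Chac1, both targets of the stress arm, were at 1 FPKM or more together in 3 cells, Trib3 alone in 5, Chac1 alone in 10 and neither in 27. The number of the 38 genes at 1 FPKM or more in a cell ran from 8 to 24 and went with the number of all genes listed (rho 0.66), with medians of 19 in the first block of 23 cell columns and 16 in the second block of 22. The labels do not say what the blocks stand for.

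In 13 of the 45 cells Tbx3 reached 1 FPKM. Spearman's rho with Tbx3 ran from -0.36 for Eif4ebp1 to 0.19 for Lars over the 28 genes. The stem cell markers Sall4 and Zfp42 were at 1 FPKM or more in all 45 cells. Tdgf1 reached that level in 42, Utf1 in 40, Sox2 in 35, Nanog in 12 and Pou5f1 in 11. Fut4, also on the stem cell list, was at 0 in all 45 cells and at 0.391 FPKM in the pool. No fibroblast marker other than Thy1, in 1 cell, reached 1 FPKM.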

How the data were processed

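The deposited bulk values are FPKM from TopHat, Cufflinks and Cuffdiff (mm9), and the deposited single-cell values are FPKM scaled over all cells with Cuffnorm, per the submitters' processing notes. Because FPKM is a share of a library's total, an abundant RNA in 1 library lowers the rest, and the bulk and single-cell scales differ. Bulk RNA went through a TruSeq total RNA kit and 26 or 100 bp reads, and single cells through Nextera XT on a Fluidigm C1, per the labels. The site list holds the deposited score of each Tbx3 site; HOMER and Bowtie 1.0 are named in the processing notes, and which of them set the score is unknown.

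Log2((a + 1)/(b + 1)) was computed for 4 comparisons over genes that reached 1 FPKM in either library, and genes past 2-fold were counted. With 1 library per group no test was run. Full values are given for genes past 2-fold, genes with a site within 20 kb and the factors Atf4, Ddit3, Atf5 and Cebpb, and for each related list up to 3 genes with the largest differences at 5 FPKM or more; some of these are not named, and others were named for their role or after their values were seen. Gene positions came from an mm9 annotation. A site counted as near when its edge lay within 20 kb of a gene start. Shares of cells at 1 FPKM have 95% Clopper-Pearson intervals (exact). The scripts, in Python 3.11.15 with pandas 2.3.3 and scipy 1.17.1, were checked on simulated data. The genes, the related lists and the comparisons were chosen with earlier results of these data known.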

Additional observations from a re-analysis of the deposited data

Results flagged for a closer look

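Nupr1 differed in opposite directions in the 2 designs that lower Tbx3. It was higher in N/N than in +/+, with a log2 difference of 1.62, and lower in shTbx3 than in shLuc, with a log2 difference of -1.39. Each value rests on 1 library per group, and the difference between them was not tested. In the single R1 cells Nupr1 ran from 0 to 1702 FPKM.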

How the results depend on the processing

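Each group had 1 library and read depth is not known, so these values describe the libraries and the size of the error cannot be given. A scaled value, a pseudocount or a filter was changed 1 at a time. Of 91 summary values, 80 moved by at most 0.1 (log2 or rho), or by at most 1.5 times for a count, 8 moved by more and 3 moved by more and changed sign; of 80 values of Ddit3, Ddit4, Nupr1 and Atf4, 28 moved by more than 0.1 and none changed sign. With a pseudocount of 5 the count of genes 2-fold higher in +/N than in +/+ was 1 and the count 2-fold lower in shTbx3 than in shLuc was 0, which follows from the low FPKM of Nupr1. At 1.5-fold, 5 genes were higher in +/N and 2 in shTbx3. The share of all genes past 1.5-fold was not computed, so these counts cannot be set beside a general rate. With the median of genes set to 0, or values rescaled without small RNA genes, the median over the 36 genes was 0.067 and 0.061 for +/N against +/+ and -0.19 and -0.24 for shTbx3 against shLuc. The first pair is positive, where the value as reported was -0.05. The median for N/N against +/N turned to -0.0041 after rescaling. The cause of these changes of sign was not tested. Within 5 kb, 3 genes had a site, and the share of all genes with a site that near was not computed. The rho with G + C share was -0.30 in the second block of cell columns. The block analysis and the ones on the order, the cells and pool, the short motif, Nupr1 in cells and the 4 named genes were chosen after seeing the data. The cutoff of 4 sites within 50 kb was taken from the count of Ddit4. No paired analysis was possible because each bulk group had 1 library and the labels give no replicate numbers.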
